A study of Mus musculus with 12 samples.

Results

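The 35 genes described here carry a cell from G1 into S phase and copy its DNA, from the loading of the MCM helicase onto origins to the ligation of Okazaki fragments. They were chosen by name, though with earlier results of these data known. Each was read from the probe sets annotated with its symbol alone, and where a gene had several, the one with the highest mean log2 signal over the 12 arrays stood for it. Of the 35 genes, 34 were measured, out of 17569 genes tested, and all 34 passed the filter on low signals. Chaf1a, a subunit of chromatin assembly factor 1, was annotated to no probe set on its own and was not analysed here. Total RNA came from homogenised left lungs of male mice aged 6 to 8 weeks, with 1 mouse on each Affymetrix Mouse Genome 430 2.0 array and 3 arrays in each of 4 groups. Nfkb1KO-O3 and Nfkb1KO-Air were Nfkb1-/- mice with the Nfkb1tm1Bal allele, which lack p105 and its product, the NF-κB subunit p50, in every cell from the germline on. WT-O3 and WT-Air were wild-type B6129PF2/J mice. The O3 groups breathed 0.3 ppm ozone without a break for 48 h, and the Air groups breathed filtered air in a chamber of their own. The 2 genotypes were separate stocks of mixed background, so genotype and stock cannot be told apart.

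Replication is prepared in G1, when Cdc6 and Cdt1 load rings of Mcm2 to Mcm7 onto origins. Cyclin E with its kinase, and the E2F transcription factors that it helps to release from the retinoblastoma protein, then open S phase, and E2F in turn drives most of the genes named here. The helicase is switched on by Cdc45, the GINS complex and Mcm10, DNA is made by primase and the polymerases on the sliding clamp Pcna, and ribonucleotide reductase, thymidylate synthase and thymidine kinase supply the building blocks. Few cells of a resting adult lung are in S phase, and epithelial, endothelial and immune cells can all enter it after injury. In homogenised tissue, a larger number of cells in S phase and more of these transcripts in each cell cannot be told apart.

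Because E2F binding is the sequence feature that these genes are best known to share, their promoters were searched for the E2F octamers TTTCCCGC, TTTCGCGC, TTTGCCGC and TTTGGCGC on either strand, counting overlapping matches. The RefSeq promoter table (GRCm38.p6) gives 250 bases before and 50 bases after each gene's start, and it held 30 of the 35 genes. Not among these 30 were Mcm4, Gins1, Gins2, Pole and Ccne2. An octamer lay in at least 1 window of 12 of the 30 genes (40%), against 18 of 66 other genes of the pathway (27.3%), 1 of 25 genes of G2/M and mitosis (4.0%) and 2.6% of all 27025 genes in the table. Counted by windows, these were 34.29% of the 35 windows of the replication genes and 2.26% of all 32851 windows. The 12 genes were Mcm3, Mcm5, Mcm6, Mcm7, Cdc6, Cdt1, Pola1, Pold1, Rfc3, Lig1, Uhrf1 and Clspn. Of the 11 genes called with O3 below, 9 had a promoter in the table and 3 of these held an octamer, as did 9 of the 20 measured genes that were not called and had one. The 3 are shown with the octamers in capitals, 5′ to 3′ on the coding strand. The Mcm5 stretch (chr8:75109259-75109467, plus strand) ends where the annotated gene begins, and its octamers TTTCGCGC and GCGCCAAA overlap, starting 153 bases before the start in the table. For Cdc6 (chr11:98908002-98908031, plus strand, 138 bases before the start) and Lig1 (chr7:13278841-13278870, plus strand, 26 bases after the start), where the match lies inside the annotated gene, 30 bases are shown.
Mcm5: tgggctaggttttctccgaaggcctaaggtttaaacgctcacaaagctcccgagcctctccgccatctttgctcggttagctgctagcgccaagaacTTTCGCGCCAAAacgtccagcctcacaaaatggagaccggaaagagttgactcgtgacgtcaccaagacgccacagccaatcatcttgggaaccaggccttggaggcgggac
Cdc6: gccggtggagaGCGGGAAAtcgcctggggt
Lig1: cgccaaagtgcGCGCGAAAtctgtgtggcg
A match describes these letters only, and no match says nothing of the factor.

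Values are log2 signals after quantile normalisation, and those of a group follow replicates 1, 2 and 3. The number of arrays limits their precision, and an exact test of 3 against 3 arrays cannot give a two-sided p under 0.1, so calls rest on limma's moderated test at an adjusted p under 0.05 over all genes. The annotation named 0 probe sets for Nfkb1 alone, so the genotype labels were not checked against the targeted gene. The 7 alveolar epithelial markers were present throughout, with a summed log2 signal of 16.7 to 17 on every array. Nfkb1KO-Air replicate 1 stood apart, with a median signal of 180 against 99.1 to 121 on the other 11 arrays, and WT-Air replicate 3 held the most skeletal muscle RNA (7 of 7 markers measured, summed log2 signal 14.9, against 8.74 to 13.0 on the other arrays). The main results that moved with these arrays are given with and without them. The next highest muscle sum was that of Nfkb1KO-O3 replicate 2, at 13.0, against 10.78 and 8.74 on the other arrays of its group. Counts over all genes also moved with scaling. With arrays centred on their medians in place of quantile normalisation, 76 genes rose and 11 fell with O3 in WT, where 555 rose and 394 fell otherwise.

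In WT lungs 8 of the 34 replication genes rose with O3 and 0 fell by limma. A total of 32 had a positive difference, with a median log2 difference of 0.70 against -0.03 over all genes. The 8 genes span the MCM helicase (Mcm5), the replication fork (Pcna, Rfc4, Prim1, Lig1), nucleotide supply (Rrm1, Rrm2) and G1/S control (Ccne2). Over all genes tested, 5.4% were called in this comparison and 3.16% were called higher. At an unadjusted p under 0.05, 21 of the 34 were higher and 0 lower, against 9.56% of all genes higher. In 28 of the 34 every WT-O3 array lay above every WT-Air array, which held for 13.5% of all genes. The 6 others were Mcm2, Pold1, Rfc3, Tyms, E2f1 and Ung.

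**Figure D1:**
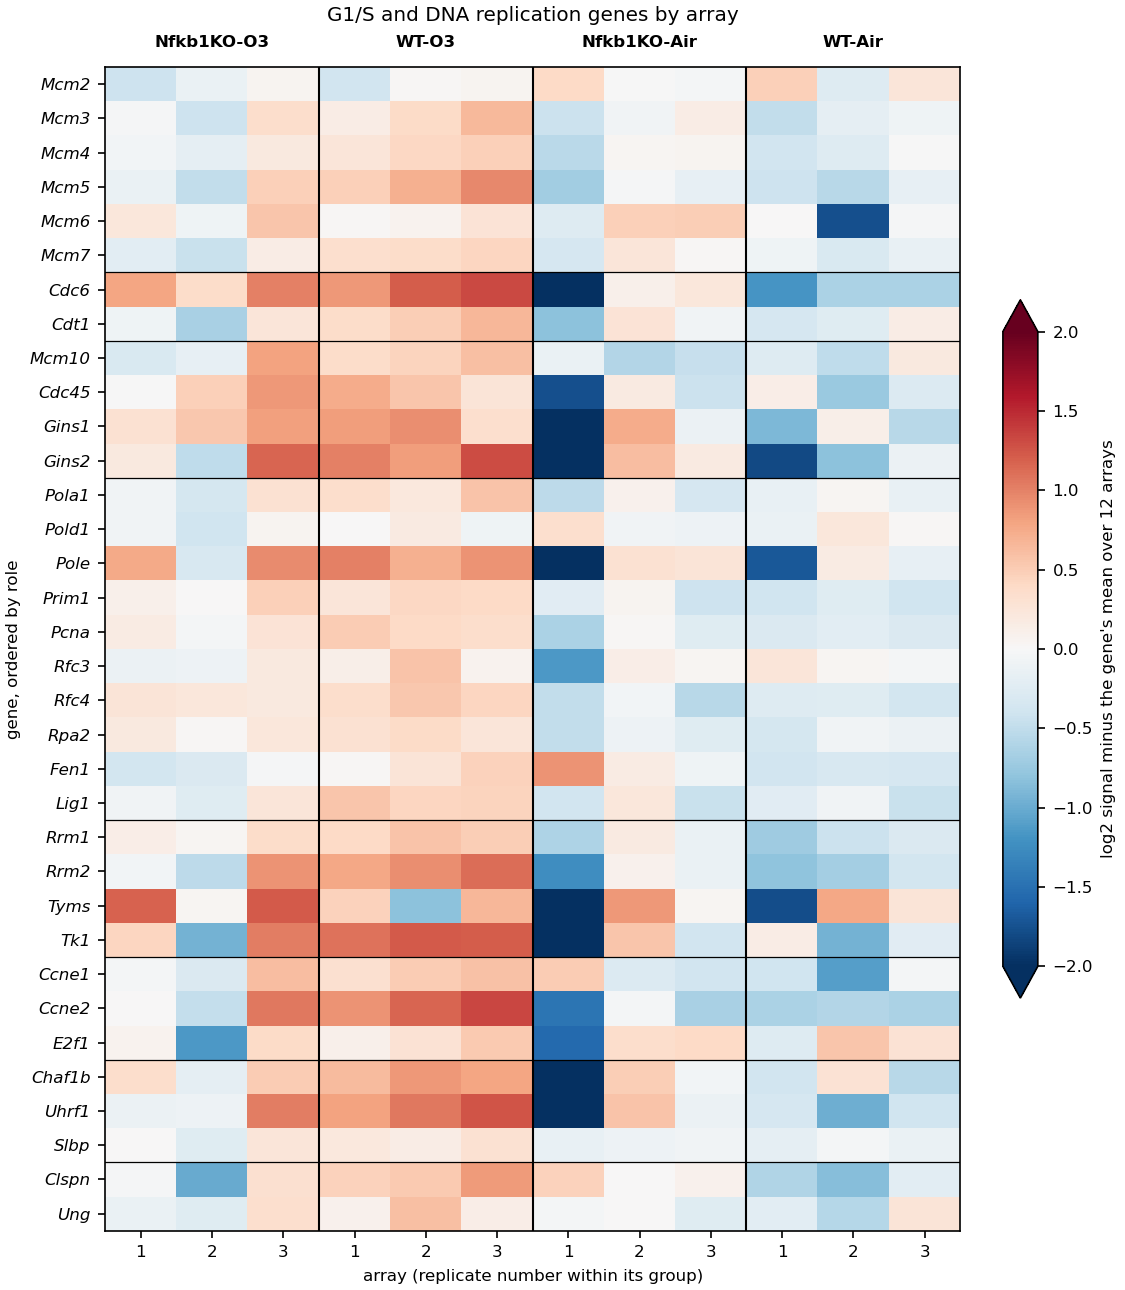
Log2 signal of the 34 measured genes on each of the 12 arrays, minus the mean of that gene over all arrays (colour scale from -2 to 2, values beyond it in the end colours), with rows ordered by role and columns by group and replicate. The 3 WT-O3 columns are above the mean for 33 of 34 genes each, and Nfkb1KO-O3 replicate 3 looks like them, while Nfkb1KO-Air replicate 1 has the lowest value of the 12 arrays for 19 genes.

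Among the licensing genes, Mcm5, a subunit of the replicative helicase, had log2 signals of 10.30, 10.54 and 10.80 in WT-O3, against 9.42, 9.27 and 9.66 in WT-Air. All WT-O3 arrays were higher, and Mcm5 rose 2.14-fold (log2 difference 1.09 ± 0.24 SE, adjusted p = 0.0206). Mcm4, which helps to form the same ring, read 10.65, 10.82 and 10.89 in WT-O3, against 10.03, 10.15 and 10.41 in WT-Air, a separation without overlap that just missed the threshold in WT alone (0.60 ± 0.16, adjusted p = 0.0532). Mcm3, Mcm6 and Mcm7 had differences of 0.64, 0.71 and 0.56 (adjusted p = 0.103 to 0.337). Mcm2 was the exception in the ring at -0.25 ± 0.20 (adjusted p = 0.544), though its other probe set gave 0.74. The loader Cdc6 read 7.36, 7.69 and 7.80 in WT-O3, against 5.30, 5.86 and 5.86 in WT-Air. These arrays did not overlap and the log2 difference was 1.94 ± 0.73 (adjusted p = 0.157). The error is shared with the Nfkb1KO-Air arrays of Cdc6, which ranged from 3.06 to 6.71. Cdt1, the partner of Cdc6 in loading, had a difference of 0.65 (adjusted p = 0.194), and the 4 helicase activators Mcm10, Cdc45, Gins1 and Gins2 had differences of 0.67 to 1.96, with 0 called. The other probe set of Cdc45 gave -0.55.

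At the fork, Pcna, the clamp that tethers the polymerases, read 12.55, 12.44 and 12.39 in WT-O3, against 11.76, 11.83 and 11.75 in WT-Air. Pcna rose 1.60-fold (log2 0.68 ± 0.13, adjusted p = 0.0135), with no overlap. Rfc4, a subunit of the loader that opens this clamp, read 8.62, 8.80 and 8.69 in WT-O3, against 8.0, 8.02 and 7.89 in WT-Air, a rise of 1.66-fold (0.73 ± 0.16, adjusted p = 0.0184). Prim1, the catalytic subunit of primase, read 8.94, 9.12 and 9.09 in WT-O3, against 8.30, 8.46 and 8.30 in WT-Air. It rose 1.63-fold (0.70 ± 0.16, adjusted p = 0.0273). Lig1, the ligase that seals Okazaki fragments, read 9.58, 9.46 and 9.47 in WT-O3, against 8.80, 8.95 and 8.59 in WT-Air. It rose 1.65-fold (0.72 ± 0.19, adjusted p = 0.0425), and for all 4 of these genes each WT-O3 array was above each WT-Air array. Rpa2, a subunit of the single-strand binding protein, separated in the same way at 8.98, 9.07 and 8.93 in WT-O3, against 8.32, 8.61 and 8.56 in WT-Air, but was not called (0.50 ± 0.14, adjusted p = 0.0627). The other 5 genes of this role differed by -0.004 (Pold1, the catalytic subunit of polymerase delta) to 1.44 (Pole, that of polymerase epsilon), with 0 called.

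The nucleotide genes held the smallest p of the set. Rrm1, the large subunit of ribonucleotide reductase, read 10.36, 10.54 and 10.46 in WT-O3, against 9.26, 9.54 and 9.68 in WT-Air. It rose 1.95-fold (log2 0.96 ± 0.18, adjusted p = 0.00965). Rrm2, the small subunit whose level follows S phase, read 10.08, 10.24 and 10.43 in WT-O3, against 8.5, 8.63 and 8.94 in WT-Air. It rose 2.95-fold (1.56 ± 0.36, adjusted p = 0.026), and its 3 probe sets differed by 1.56 to 2.01. Tk1, thymidine kinase 1, was higher on every WT-O3 array without a call (1.51, adjusted p = 0.296), and Tyms, thymidylate synthase, read near the low end of the signal range with overlapping groups.

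Of the 3 genes of G1/S control, Ccne2, cyclin E2, gave the largest called rise of the set. It read 7.70, 7.97 and 8.14 in WT-O3, against 6.16, 6.21 and 6.17 in WT-Air, 3.37-fold higher (log2 1.75 ± 0.41, adjusted p = 0.0281). The 3 WT-Air values were close together, and every WT-O3 value was above them. Ccne1, cyclin E1, had a difference of 0.99 (adjusted p = 0.116) and E2f1 itself of 0.11 (adjusted p = 0.941). Among the chromatin genes, Uhrf1, which guides methylation of new DNA, and Chaf1b, a histone chaperone subunit, had differences of 1.61 and 0.98, and Slbp, which binds histone mRNA, of 0.34, with 0 called. The checkpoint mediator Clspn had a difference of 1.17 (adjusted p = 0.0646) and the uracil glycosylase Ung of 0.45 (adjusted p = 0.406).

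**Figure D2:**
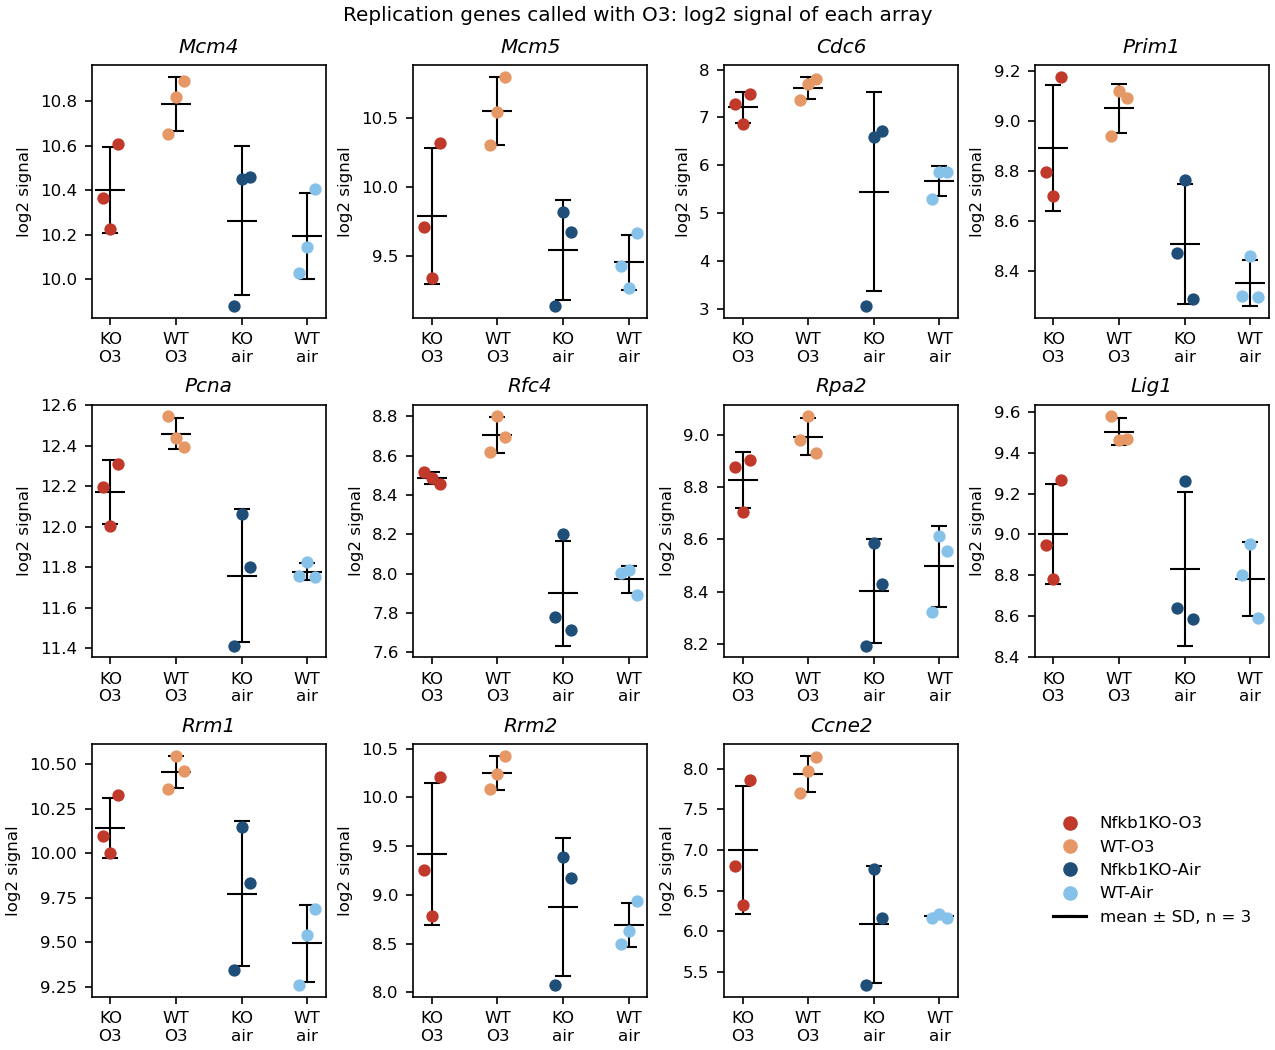
Log2 signal of the 11 genes called in at least 1 O3 comparison, 1 point per array, with the mean and SD of each group of 3 as black bars (panels have their own scales). WT-O3 lies above WT-Air in every panel, while Nfkb1KO-O3 and Nfkb1KO-Air overlap in all panels but Cdc6, Rfc4 and Rpa2.

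How many of the 34 passed the threshold in WT depended on single arrays. Leaving out WT-O3 replicate 2 gave 0 calls, WT-O3 replicate 3 gave 2 and WT-O3 replicate 1 gave 3. Leaving out WT-Air replicate 1 or 3 gave 3 calls, WT-Air replicate 2 gave 5, and Nfkb1KO-Air replicate 1, an array outside the comparison, gave 15. In that last fit Cdc6 was called at 3.99-fold (log2 1.99 ± 0.25, adjusted p = 0.00178), as were Mcm4, Mcm7, Rpa2 and Fen1, while 1 gene was called with arrays centred on their medians. Calls over all genes moved too, from 292 without WT-O3 replicate 2 to 1316 without Nfkb1KO-Air replicate 1, against 949 with all arrays. The median over the 34 was steadier and stayed between 0.70 and 0.76 with any 1 array left out.

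In Nfkb1-deficient lungs 1 of the 34 genes rose with O3 and 0 fell by limma. A total of 28 had a positive difference, and the median was 0.34 against -0.01 over all genes. Here 6.18% of all genes were called and 3.35% were called higher, so that 1 of 34 is near or below the background. At an unadjusted p under 0.05, 7 were higher, against 10.9% of all genes, and 1 was lower, Fen1. In 3 genes, Cdc6, Rfc4 and Rpa2, all Nfkb1KO-O3 arrays were above all Nfkb1KO-Air arrays, against 13.1% of all genes. The called gene was Rfc4, which read 8.52, 8.48 and 8.45 in Nfkb1KO-O3, against 7.78, 8.20 and 7.71 in Nfkb1KO-Air. It rose 1.5-fold (log2 0.59 ± 0.16, adjusted p = 0.0436).

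The other genes called in WT overlapped between the Nfkb1-deficient groups. Rrm2 read 9.26, 8.78 and 10.21 in Nfkb1KO-O3, against 8.07, 9.39 and 9.17 in Nfkb1KO-Air (log2 0.54 ± 0.36, adjusted p = 0.419). Ccne2 read 6.80, 6.33 and 7.86 in Nfkb1KO-O3, against 5.34, 6.76 and 6.16 in Nfkb1KO-Air (0.91 ± 0.41, adjusted p = 0.217). Mcm5 read 9.71, 9.34 and 10.32 in Nfkb1KO-O3, against 9.14, 9.82 and 9.68 in Nfkb1KO-Air (0.24 ± 0.24, adjusted p = 0.604). In all 3 genes Nfkb1KO-O3 replicate 3 was high, replicate 2 was low, and replicate 1 of Nfkb1KO-Air was the lowest array. Pcna read 12.20, 12.00 and 12.31 in Nfkb1KO-O3, against 11.41, 12.06 and 11.80 in Nfkb1KO-Air (0.41 ± 0.13, adjusted p = 0.0932). Rrm1 read 10.10, 10.00 and 10.33 in Nfkb1KO-O3, against 9.34, 10.14 and 9.83 in Nfkb1KO-Air (0.37 ± 0.18, adjusted p = 0.258). These 2 genes overlapped through Nfkb1KO-Air replicate 2 alone. Prim1 read 8.80, 8.70 and 9.18 in Nfkb1KO-O3, against 8.47, 8.76 and 8.29 in Nfkb1KO-Air (0.38 ± 0.16, adjusted p = 0.188). Lig1 read 8.95, 8.78 and 9.27 in Nfkb1KO-O3, against 8.64, 9.26 and 8.59 in Nfkb1KO-Air (0.17 ± 0.19, adjusted p = 0.651), so that its groups covered much the same range.

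Of the genes called only with both genotypes averaged, Cdc6 read 7.28, 6.86 and 7.5 in Nfkb1KO-O3, against 3.06, 6.59 and 6.71 in Nfkb1KO-Air. Its groups did not overlap, and since Nfkb1KO-Air replicate 1 lay under the low-signal level of 4.37, the fold is given as at least 2.51-fold higher (fitted log2 1.76 ± 0.73, adjusted p = 0.181). Rpa2 read 8.88, 8.70 and 8.90 in Nfkb1KO-O3, against 8.19, 8.59 and 8.43 in Nfkb1KO-Air, again without overlap (0.42 ± 0.14, adjusted p = 0.0988). Mcm4 read 10.36, 10.23 and 10.61 in Nfkb1KO-O3, against 9.88, 10.45 and 10.46 in Nfkb1KO-Air, with overlap (0.14 ± 0.16, adjusted p = 0.682). Fen1, the nuclease that trims the flaps of Okazaki fragments, had the most negative difference of the 34 on the probe set used, at 9.76, 9.83 and 10.10 in Nfkb1KO-O3, against 11.01, 10.29 and 10.04 in Nfkb1KO-Air (-0.55 ± 0.20, adjusted p = 0.133). Its other probe set, of lower mean signal, gave 0.56, so the 2 probe sets of Fen1 disagreed in direction.

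The differences in Nfkb1-deficient lungs moved with 1 array. Without Nfkb1KO-Air replicate 1 the median of the 34 was 0.09 in place of 0.34, 22 were positive and 12 negative, and 0 were called. In that fit 3 had an unadjusted p under 0.05, and the share of all genes was not counted. Rfc4 was then at 1.45-fold (0.54 ± 0.16, adjusted p = 0.0959), and its call was lost with any 1 array left out except WT-Air replicate 3 and Nfkb1KO-Air replicate 2. Cdc6 was at 0.58 ± 0.28 without Nfkb1KO-Air replicate 1 (adjusted p = 0.302) and Rrm2 at 0.14 ± 0.32 (adjusted p = 0.88). Fen1 was at -0.27 (adjusted p = 0.349), and the most negative difference was then that of E2f1 at -0.62 ± 0.40 (adjusted p = 0.46). Leaving out Nfkb1KO-O3 replicate 3 instead gave a median of 0.15.

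**Figure D3:**
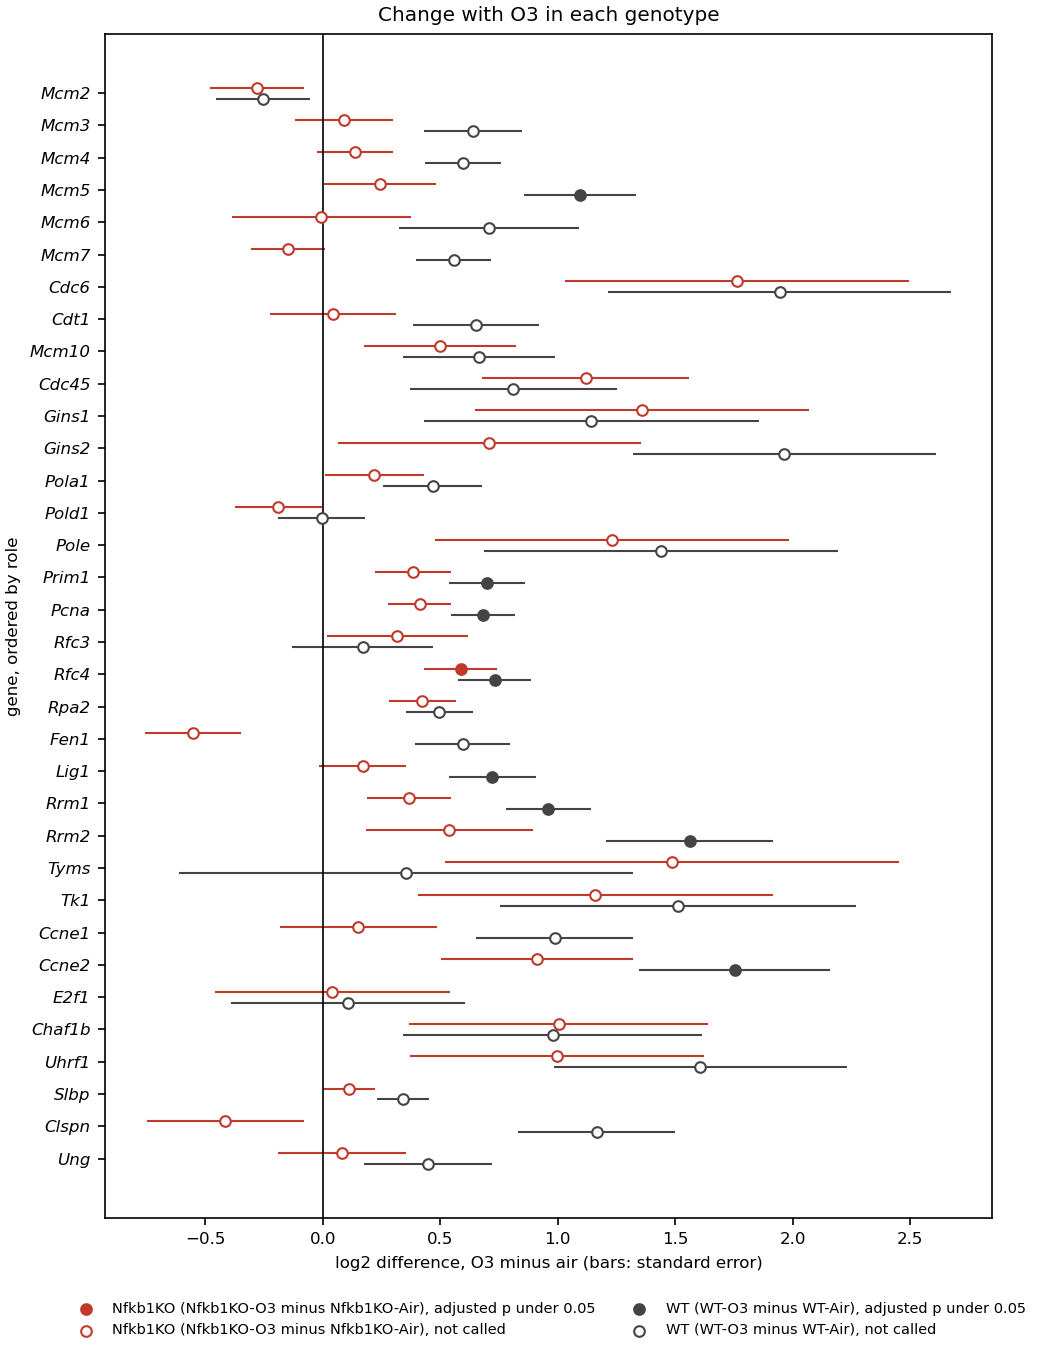
Log2 difference between O3 and air for each of the 34 genes, in Nfkb1-deficient (red) and WT lungs (grey), with standard errors as bars and filled points for an adjusted p under 0.05. The WT point lies to the right of the Nfkb1-deficient point for 29 genes, and error bars are widest for genes of low signal such as Tyms, Tk1, Pole and Cdc6.

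Averaged over the genotypes, 11 of the 34 rose with O3 and 0 fell, against 15.2% of all genes called and 7.7% called higher. These were the 8 genes called in WT together with Rpa2, Cdc6 and Mcm4. Rfc4 had the smallest p, at 1.58-fold (log2 0.66 ± 0.11, adjusted p = 0.00183), followed by Pcna at 1.46-fold (0.55 ± 0.10, adjusted p = 0.00245) and Rrm1 at 1.58-fold (0.66 ± 0.13, adjusted p = 0.00408). Rpa2 was 1.38-fold higher (0.46 ± 0.10, adjusted p = 0.00856) and Mcm4 1.29-fold higher (0.37 ± 0.11, adjusted p = 0.0494). Cdc6 was at least 3.11-fold higher by the same low-signal rule (fitted log2 1.85 ± 0.52, adjusted p = 0.0298). Rfc4, Rpa2 and Cdc6, 3 of the 34, had all 6 O3 arrays above all 6 air arrays, against 4.63% of all genes. With 1 array left out in turn, the call of Lig1 was lost in 9 of 12 fits, that of Mcm4 in 8 and that of Cdc6 in 6, while those of the other 8 genes held in all 12. With the mean of its probe sets in place of the brightest, Rrm1 was at 0.25 and not called (adjusted p = 0.473). Of its 3 probe sets, 1 with a mean log2 signal of 3.51 gave -0.68. The count stayed between 8 and 16 with any 1 array left out and was 12 without Nfkb1KO-Air replicate 1 and WT-Air replicate 3. Over all genes, 1778 to 2733 were called with any 1 array left out, against 2671 with all arrays.

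Each array was also described by the median over the 34 genes of log2 signal minus the mean of that gene. This median was 0.37, 0.50 and 0.51 in WT-O3, against -0.35, -0.26 and -0.16 in WT-Air, and each WT-O3 array had 33 of the 34 genes above their means. In Nfkb1KO-O3 it was -0.01, -0.24 and 0.38, against -0.58, 0.10 and -0.11 in Nfkb1KO-Air. The WT groups were tight and apart (0.46 ± 0.08 in WT-O3 and -0.26 ± 0.09 in WT-Air, SD, n = 3), whereas the Nfkb1-deficient groups were spread and overlapped (0.04 ± 0.31 in Nfkb1KO-O3 and -0.20 ± 0.35 in Nfkb1KO-Air, SD, n = 3). Nfkb1KO-O3 replicate 3 had 33 genes above their means, replicate 1 had 16 and replicate 2 had 8. Over all genes, the median was between -0.02 and 0.04 on every array.

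**Figure D4:**
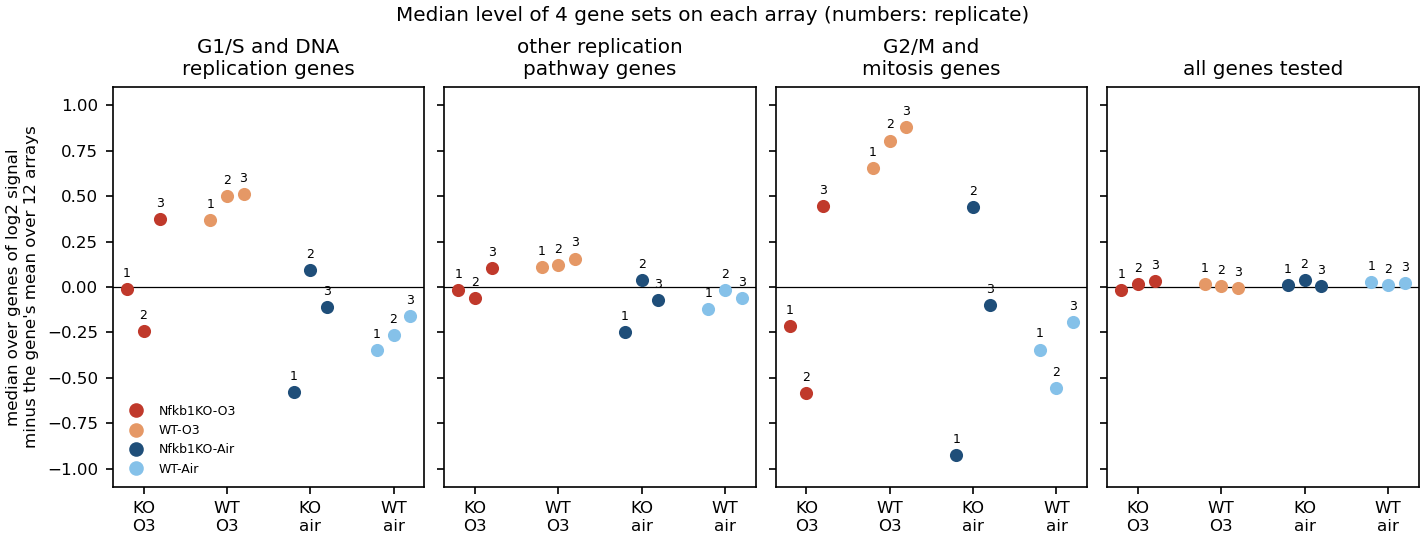
Median on each array of log2 signal minus the mean of each gene over 12 arrays, for the 34 G1/S and DNA replication genes, 79 other genes of the pathway, 27 G2/M and mitosis genes and all 17569 genes, with 1 point per array and the replicate number beside it. WT-O3 arrays are the upper cluster of the first panel at 0.37 to 0.51, the Nfkb1-deficient arrays are scattered in both exposures, and all genes stay near 0.

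Other measures also differed between O3 and air arrays. The 3′ minus 5′ log2 difference of the Gapdh control probe sets, a sign of RNA integrity and labelling, was -0.495 ± 0.065 on the 6 O3 arrays and -0.217 ± 0.099 on the 6 air arrays (SD, two-sided exact permutation p = 0.00216, the smallest this design can give). The median signal was 104 ± 5.33 on the 6 O3 arrays and 123 ± 28.5 on the 6 air arrays (SD, two-sided exact permutation p = 0.0303). The 3′ minus 5′ difference of Actb was 0.296 ± 0.049 with O3 and 0.497 ± 0.09 in air (exact permutation p = 0.00649). Hybridisation controls were at 11.705 ± 0.042 with O3 and 11.916 ± 0.091 in air (exact permutation p = 0.00433). The polyA spike-in controls were at 9.325 ± 0.269 with O3 and 9.774 ± 0.236 in air (exact permutation p = 0.013). The 6 macrophage markers, all measured and none of them low on every array, had a summed log2 signal of 14.19 to 14.23 in Nfkb1KO-O3 and 14.08 to 14.21 in WT-O3, against 13.63 to 13.87 in Nfkb1KO-Air and 13.67 to 13.91 in WT-Air. Of the 6, 5 had a positive difference with O3 and 1 a negative one, in each genotype. In air 1 of the 6 was called lower in Nfkb1KO-Air by limma (adjusted p = 0.00465). The 7 T and NK cell markers were at 11.56 to 12.34 in Nfkb1KO-O3, 10.07 to 10.34 in WT-O3, 11.65 to 12.17 in Nfkb1KO-Air and 10.88 to 11.46 in WT-Air, lowest in WT-O3. Between the air groups the sum hides a split, since 3 of the 7 were higher in Nfkb1KO-Air and 4 lower (median -0.25). The summed signal of the 4 fibroblast markers was lower with O3 in both genotypes without overlap. It was 13.77 to 14.26 in Nfkb1KO-O3 and 14.45 to 14.63 in WT-O3. In air it was 14.34 to 14.67 in Nfkb1KO-Air and 14.68 to 14.93 in WT-Air. Taken singly, 3 of the 4 markers had a negative difference with O3 and 1 a positive one, in each genotype. By the sum, the 3 Nfkb1KO-O3 arrays were all under the 3 WT-O3 arrays, and Nfkb1KO-O3 replicate 2 was the lowest. The 4 endothelial markers were at 13.93 to 14.42 in Nfkb1KO-O3 and 14.28 to 14.37 in WT-O3, against 14.39 to 14.56 in Nfkb1KO-Air and 14.42 to 14.93 in WT-Air. The 4 of 5 neutrophil markers that were measured differed by genotype, at 11.42 to 12 in Nfkb1KO-O3 and 11.5 to 11.81 in Nfkb1KO-Air, against 10.28 to 10.56 in WT-O3 and 10.55 to 10.9 in WT-Air. Summed alveolar epithelial signal was 16.83 to 16.89 in Nfkb1KO-O3 and 16.89 to 16.97 in WT-O3. In air it was 16.7 to 16.78 in Nfkb1KO-Air and 16.79 to 16.92 in WT-Air. The 5 measured B and plasma cell markers and 3 measured erythroid markers had negative differences with O3 in both genotypes. Skeletal muscle was at 8.88 to 9.87 in WT-O3, against 10.22 to 14.86 in WT-Air. In Nfkb1-deficient lungs it overlapped, at 8.74 to 13.04 with O3 and 10.15 to 10.84 in air. The part of these measures in the results on the replication genes was not tested. The 6 thymocyte markers overlapped between O3 and air in both genotypes, at 7.79 to 8.13 in Nfkb1KO-O3, 7.99 to 8.59 in WT-O3, 7.97 to 8.80 in Nfkb1KO-Air and 7.74 to 9.0 in WT-Air.

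In filtered air no call was made between the genotypes. Of the 34, 0 were called by limma between Nfkb1KO-Air and WT-Air, where 0.342% of all genes were called. At an unadjusted p under 0.05, 2 were higher and 0 lower, against 5.56% of all genes higher, and the median difference was -0.03, with 16 positive and 18 negative. The 2 were Fen1, at 11.01, 10.29 and 10.04 in Nfkb1KO-Air, against 9.73, 9.80 and 9.79 in WT-Air (0.68 ± 0.20, adjusted p = 0.226), and Clspn, at 7.31, 6.86 and 6.94 in Nfkb1KO-Air, against 6.25, 6.01 and 6.64 in WT-Air (0.74 ± 0.33, adjusted p = 0.434). Both were higher on every Nfkb1KO-Air array than on any WT-Air array. This held for 2 of the 34 and for 6.63% of all genes, so both counts of 2 are near the background. Their other probe sets gave -0.07 for Fen1 and -0.009 for Clspn. Nfkb1KO-Air replicate 1 again set the median. Without it the median was 0.28, 29 genes were positive and 6 had an unadjusted p under 0.05, all higher, though 0 were called (smallest adjusted p 0.243). How many of all genes passed that unadjusted p in this fit was not counted. Fen1 was then at 0.40 ± 0.14 (adjusted p = 0.402) and Clspn at 0.62 ± 0.37 (adjusted p = 0.661). Without WT-Air replicate 3 as well, the median was 0.35, with 28 positive and 0 called.

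After O3, the differences were on the lower side in Nfkb1-deficient lungs without passing the threshold. Of the 34, 0 were called between Nfkb1KO-O3 and WT-O3, against 0.723% of all genes, and the smallest adjusted p was 0.195. Negative differences were found in 32, with a median of -0.40 against 0.00 over all genes. At an unadjusted p under 0.05, 9 were lower and 0 higher, against 4.74% of all genes lower, and in 12 all Nfkb1KO-O3 arrays lay under all WT-O3 arrays, against 9.76% of all genes. The 9 were Mcm7, Mcm5, Lig1, Clspn, Cdt1, Mcm4, Rrm2, Fen1 and Ccne2. Mcm7 had the smallest p, at 10.29, 10.06 and 10.66 in Nfkb1KO-O3, against 10.85, 10.88 and 10.94 in WT-O3 (-0.55 ± 0.16, adjusted p = 0.195). Clspn read 6.84, 5.85 and 7.18 in Nfkb1KO-O3, against 7.31, 7.38 and 7.70 in WT-O3 (-0.84 ± 0.33, adjusted p = 0.415), while its other, dim probe set gave 1.15. Cdt1 read 9.36, 8.80 and 9.69 in Nfkb1KO-O3, against 9.81, 9.93 and 10.11 in WT-O3 (-0.67 ± 0.27, adjusted p = 0.415). In these 3 genes no Nfkb1KO-O3 array reached the lowest WT-O3 array, and Nfkb1KO-O3 replicate 2 was the lowest of the 6. The 2 positive differences were Mcm6 at 0.11 and Tyms at 0.71. Leaving out Nfkb1KO-O3 replicate 2 gave a median of -0.23, and leaving out replicate 3 of that group gave -0.58. It stayed at -0.40 without Nfkb1KO-Air replicate 1, when 14 genes were lower at an unadjusted p under 0.05. The 4.74% above is from all 12 arrays, and the share of all genes without that array was not counted.

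Whether O3 acted differently in the 2 genotypes was tested by the interaction, the O3 difference in Nfkb1-deficient lungs minus that in WT lungs. Of the 34, 0 were called, against 0.0342% of all genes, and 29 were negative, with a median of -0.33 against 0.01 over all genes. At an unadjusted p under 0.05, 5 were negative and 0 positive, against 2.8% of all genes negative. They were Fen1 (-1.15 ± 0.29, adjusted p = 0.53), Clspn (-1.58 ± 0.47, adjusted p = 0.652), Mcm7 (-0.70 ± 0.22, adjusted p = 0.742), Mcm5 (-0.85 ± 0.34, adjusted p = 0.81) and Rrm1 (-0.59 ± 0.25, adjusted p = 0.81). Other probe sets of Fen1, Clspn and Mcm5 differed in size or sign from those used. That of Fen1 gave -0.23, the dim one of Clspn gave 1.16, and those of Mcm5 gave -0.18 and, at a low signal, -0.66. The 3 other probe sets of Mcm7 gave -0.61 to -0.77. Without Nfkb1KO-Air replicate 1, 32 were negative, the median was -0.72, 16 had an unadjusted p under 0.05, all negative, and 0 were called (smallest adjusted p 0.328). The share of all genes at that unadjusted p was not counted in this fit, so 16 cannot be set against the 2.8% above. With WT-Air replicate 3 left out as well the median was -0.81. Leaving out only Nfkb1KO-O3 replicate 2 gave -0.20, and only replicate 3 of that group gave -0.53.

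The other genes of the pathway, 79 of 80 measured, include cyclins and inhibitors that act before or against S phase. With O3 in WT lungs 7 of the 79 rose and 1 fell (10.1%, against 5.4% of all genes), with a median of 0.20. The chromatin remodeller Hells, which follows S phase, read 8.69, 9.04 and 9.15 in WT-O3, against 6.72, 7.17 and 7.27 in WT-Air (log2 1.91 ± 0.30, adjusted p = 0.00454). Nasp, a chaperone of histones, and Prim2, the partner of Prim1 in primase, rose by 0.68 ± 0.15 and 0.86 ± 0.20 (adjusted p = 0.0215 and 0.0276), and the gene that fell was Ccnd2, cyclin D2 (-0.45 ± 0.10, adjusted p = 0.0293). In Nfkb1-deficient lungs 2 rose and 2 fell (5.06%, below the 6.18% of all genes), with a median of 0.15. The cyclin-dependent kinase inhibitor Cdkn1a read 12.06, 11.74 and 12.48 in Nfkb1KO-O3, against 10.97, 10.69 and 10.52 in Nfkb1KO-Air (1.37 ± 0.30, adjusted p = 0.0189). Cdkn2b, another inhibitor of G1 kinases, rose by 0.70 ± 0.12 (adjusted p = 0.0055). Ccnd1, cyclin D1, fell to 12.27, 12.05 and 12.44 in Nfkb1KO-O3, against 13.03, 12.92 and 12.69 in Nfkb1KO-Air (-0.63 ± 0.13, adjusted p = 0.0131), and the inhibitor Cdkn1b fell by 0.58 on the log2 scale (adjusted p = 0.0464). Without Nfkb1KO-Air replicate 1, Cdkn1a and Cdkn2b were still called (adjusted p = 0.0393 and 0.0187), while Ccnd1 and Cdkn1b were not (adjusted p = 0.0586 and 0.12). In WT lungs Cdkn1a and Ccnd1 differed by 0.58 and 0.01 with O3 (adjusted p = 0.306 and 0.982), and their interactions, 0.79 ± 0.42 and -0.64 ± 0.18, were not called (adjusted p = 0.831 and 0.645). Averaged over the genotypes, 14 of the 79 rose and 5 fell (24.1%, against 15.2% of all genes). Between genotypes 0 were called in air, and after O3 the only call was Samhd1, which breaks down deoxynucleotides and was at a higher level in the Nfkb1-deficient mice (0.54 ± 0.11, adjusted p = 0.045), with 11.31, 11.06 and 11.15 in Nfkb1KO-O3, against 10.54, 10.59 and 10.75 in WT-O3. With O3 itself, Samhd1 differed by 0.16 in Nfkb1-deficient lungs and by -0.29 in WT lungs (adjusted p = 0.452 and 0.156).

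Set beside 27 measured genes of G2/M and mitosis, the next stage of the cycle, the replication genes had a smaller median with O3 in WT lungs and a larger one in Nfkb1-deficient lungs. Those in Nfkb1-deficient lungs moved with Nfkb1KO-Air replicate 1. The medians with O3 were 0.70 for the replication genes and 1.18 for the mitotic genes in WT lungs, with 7 of the 27 mitotic genes called higher, and 0.34 and 0.12 in Nfkb1-deficient lungs, with 0 mitotic genes called. Without Nfkb1KO-Air replicate 1 they were 0.09 for the replication genes and -0.31 for the mitotic genes, 23 of which were negative. After O3 the medians between Nfkb1KO-O3 and WT-O3 were -0.40 for the replication genes and -0.88 for the mitotic genes, all 27 of which were negative. These medians describe the 2 sets side by side and their difference was not tested.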

How the data were processed

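The deposited values were signal intensities of 45101 probe sets, which the authors obtained from Affymetrix Expression Console by MAS5 (versions not given in the sources used here) and scaled to a trimmed mean of 500 per array. The 64 control probe sets were set aside. Intensities were floored at 1, put on the log2 scale and quantile normalised between arrays, and probe sets above the percentile 20 (log2 4.37) on at least 1 array were kept, 42559 in all. A gene was represented by the probe set with its symbol alone and the highest mean, giving 17569 genes. Group means of all 12 arrays were fitted with limma 3.58.1 in R 4.3.3 (moderated with a trend, 12.55 degrees of freedom), with Benjamini-Hochberg adjustment over all genes and calls at 0.05. The fit was also run on simulated data in which the noise of a gene had the same spread on every array. That run cannot speak to arrays that stand apart or to groups of unequal spread. Where a dimmer group held an array under the low-signal level, folds were set against that level.

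Members and lists were chosen with earlier results of these data known. Members called in any of 6 comparisons are given in full, with up to 4 called pathway genes per comparison. Probe sets of 1 gene could disagree in size or sign, as stated for Mcm2, Cdc45, Fen1, Clspn, Mcm5 and Rrm1. With O3 in WT, another probe set of Mcm6, Pola1, Pold1 and E2f1 also had the opposite sign to the one used. Replicate numbers did not pair arrays (correlation of deviations -0.166 to 0.107 for equal numbers), and the labels name separate mice. Alternatives were scaling, filter, pseudocount, probe sets, trend, weights, arrays in the fit, replicate block and arrays left out, one of them (both arrays that stand apart) chosen after seeing the data.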

Additional observations from a re-analysis of the deposited data

How the results depend on the processing

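Members called with O3 were higher under all alternatives run, and no call was reversed. Some differences that were not called did change sign, such as Mcm4 in Nfkb1-deficient lungs at -0.06 without Nfkb1KO-Air replicate 1. In WT lungs, where 8 were called, median centring of the arrays gave 1, a spread fitted with no trend gave 2, averaging the probe sets of a gene gave 4, and the count was 17 with array weights or with only the 6 WT arrays in the fit. It ranged from 0 to 15 with 1 array left out. In Nfkb1-deficient lungs, where 1 was called, it was 0 with median centring, with the deposited scaling only, with the 6 arrays of that genotype alone, with the replicate number as a block, and without the 2 arrays that stand apart, 2 with array weights, and 0 to 2 with 1 array left out. Calls over all genes with O3 in Nfkb1-deficient lungs were 1747 with array weights and 308 with median centring, against 1086. Averaged over the genotypes, 7 were called without the trend, against 11. After O3, 1 was lower in Nfkb1KO-O3 with array weights, against 0, while calls over all genes went from 127 to 395. The replicate block left the counts in WT at 9 and averaged over the genotypes at 12.

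The median interaction of -0.33 was -0.61 with the deposited scaling, -0.60 with array weights, -0.81 without the 2 arrays, and -0.72 to -0.20 with 1 array left out. The median with O3 in Nfkb1-deficient lungs was 0.0871 without the 2 arrays and 0.0862 to 0.47 with 1 array left out. The median by genotype in air was 0.35 without the 2 arrays and -0.13 to 0.28 with 1 array left out. Median centring moved the median of all genes to 0.25 with O3 in Nfkb1-deficient lungs, where the members were then at 0.56, to 0.13 averaged over the genotypes (members 0.64), to -0.20 by genotype in air (members -0.12) and to 0.25 for the interaction (members -0.31). Calls over all genes moved too, between 87 (median centring) and 1548 (array weights) with O3 in WT. An ordinary t-test for genotype in air gave 1 member at the unadjusted threshold of the study's methods, against 1182 of the 17569 genes. After Benjamini-Hochberg adjustment it gave 0 members and 0 of all genes. The study's methods name a t-test here and its table notes a moderated one. The causes were not tested. Low signals limit Cdc6, Gins1, Pole, Tyms, Tk1 and Chaf1b, which lay under the low-signal level on at least 1 array.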
